A study of Mus musculus with 4 samples.

Results

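The genes for cytosolic ribosomal proteins were examined for N6-methyladenosine (m6A) in hearts of Wtap-CKO mice, which lack Wtap conditionally, and of Wtapflox/flox control mice. They were taken from the peak lists of both genotypes by symbol: Rpl or Rps followed by a digit, or Rplp, leaving out the Rps6k kinases and names with -ps, which mark pseudogenes. This took 35 of the 12182 genes with a peak in either list. They carried 44 of 21179 peaks in the knockout list and 25 of 20766 peaks in the control list. The symbols alone chose them among the genes with a called peak, so ribosomal protein genes without a peak are not among them.

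The hearts came from 4-day-old mice, and m6A was mapped by MeRIP-seq: RNA fragments that bind an antibody against m6A are compared with the unselected input. The Wtap-CKO hearts of 8 mice and the Wtapflox/flox hearts of 7 mice were each pooled as total RNA, and each pool gave 1 library from the immunoprecipitation (IP) and 1 from the input. The control mice carry the floxed alleles, and the Cre line of the knockout is not named in the labels used here. With 1 pooled pair of libraries per genotype there was no replicate, so no test between genotypes was possible and no p-value was computed for any difference. The fold given for a peak is the authors' IP over input value in a list called separately for each genotype, and the depth of the libraries was unknown. A fold is no transcript level. In bulk hearts, fewer cells of a type and less RNA per cell cannot be told apart. All 6 cardiomyocyte and all 6 endothelial markers had peaks in both lists. Of 6 fibroblast markers 6 had a knockout peak and 5 a control peak, of 5 smooth muscle and pericyte markers 5 and 4, of 5 immune markers 2 and 2 and of 6 erythroid markers 2 and 2. Of the immune markers, Csf1r and Lyz2 had peaks in both lists, and Ptprc, Cd68 and Itgam had none in either. A marker without an m6A peak does not show that its cell type is absent. Wtap itself had 4 peaks in the knockout list and 3 in the control list, which do not check the deletion.

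Ribosomal proteins build the large (60S) and small (40S) subunits of the cytosolic ribosome around the ribosomal RNAs. Their transcripts are short, abundant and spread over many short exons, and most begin with a terminal oligopyrimidine (TOP) tract through which mTORC1 signalling sets their translation. WTAP belongs to the regulatory part of the nuclear complex in which METTL3 and METTL14 place m6A on messenger RNA, and m6A is known to be enriched in long exons and near stop codons.

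Of the 35 genes, 28 encode core ribosomal proteins, 18 of the 60S and 10 of the 40S subunit. Another 5 are paralogs (Rpl7l1, Rpl22l1, Rpl36al, Rps27l and Rps4l, the last a transcribed pseudogene in RefSeq). The remaining 2 are no ribosomal proteins: Rps19bp1 encodes a nucleolar binding partner of the Rps19 protein, and Rps23rg1 is a retrogene of Rps23. Set against a list of all 80 cytosolic ribosomal proteins, 31 had a peak in either list, counting 3 genes, Fau and Rpsa among them, whose names the choice by symbol does not take. The other 49 had no peak in either list as used here. These included all 3 genes of the ribosomal stalk, Rplp0, Rplp1 and Rplp2.

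The knockout list held peaks in 33 of the 35 genes and the control list in 22. Peaks lay in both lists for 20 genes, in the knockout list only for 13 (37.1%, exact 95% interval 21.5 to 55.1) and in the control list only for 2 (5.71%, 0.7 to 19.2). Over all genes with a peak, 11.9% were in the knockout list only and 10.5% in the control list only. These intervals cover counting error only and take genes as independent. Among the 80 ribosomal proteins, the knockout-only genes were 7 of the 60S and 6 of the 40S subunit, and Rps18 was the one control-only gene.

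**Figure D1:**
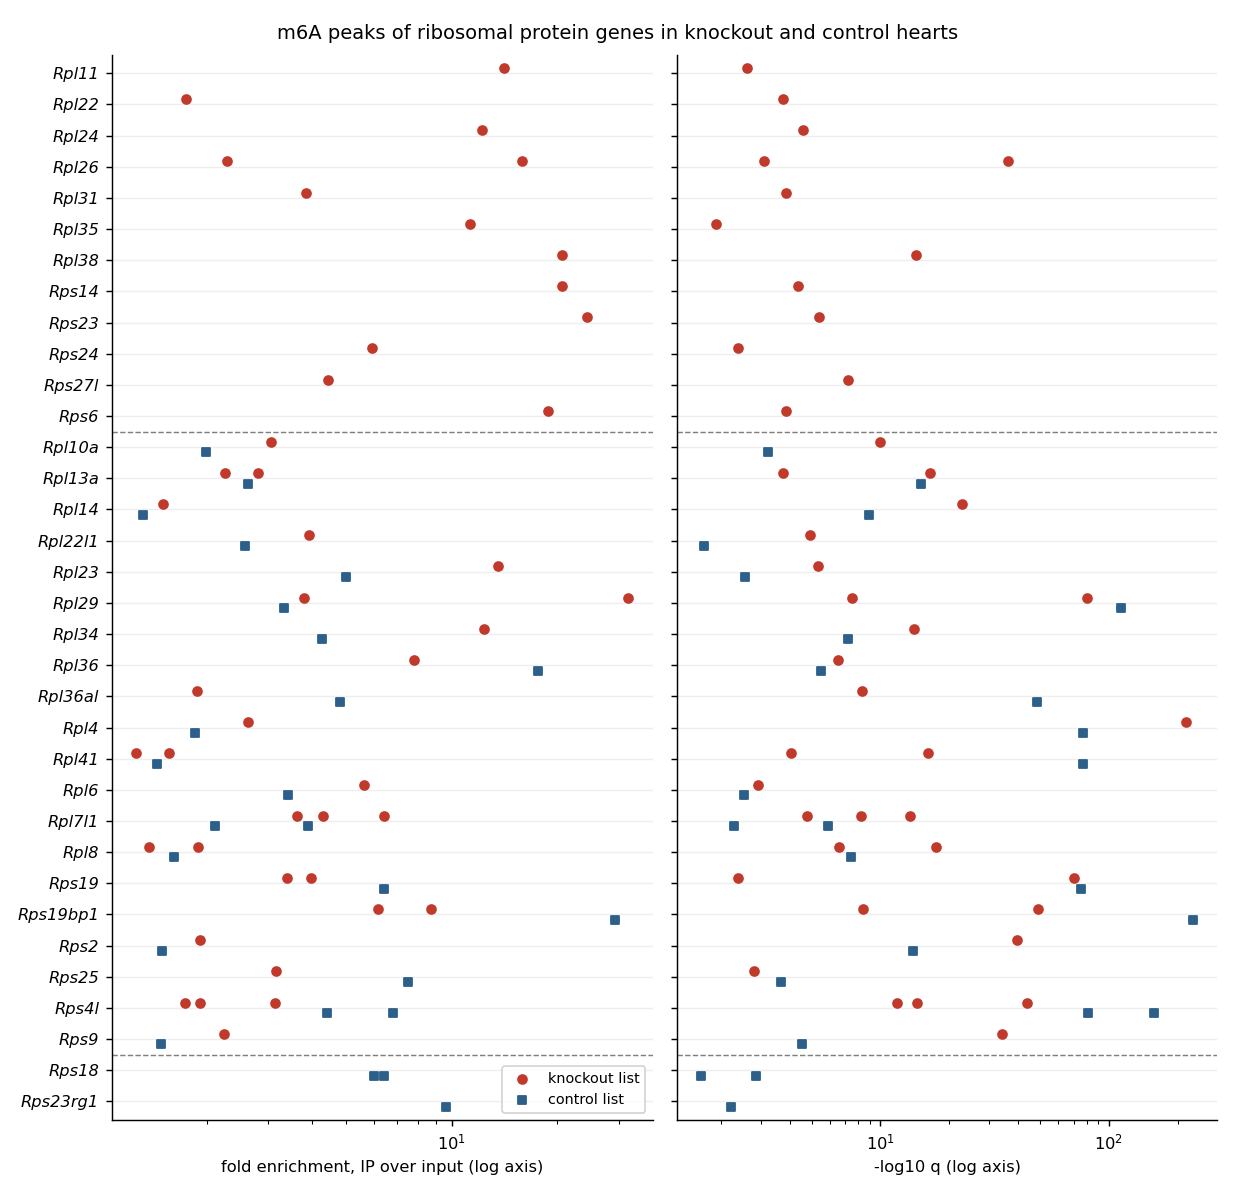
The m6A peaks of the ribosomal protein genes, without 1 knockout-only gene that is not reported here, with fold enrichment on the left (IP over input, log axis) and −log10 q on the right (log axis). Red circles are knockout peaks and blue squares control peaks. Dashed lines part the knockout-only genes at the top, the 20 genes in both lists and the 2 control-only genes at the bottom. Peaks of the knockout-only genes reach a fold of 24.4 (Rps23) and mostly lie at small −log10 q.

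The knockout-only genes of the small subunit included Rps6, Rps14, Rps23 and Rps24. Rps6, the ribosomal protein phosphorylated by the S6 kinases, had a knockout peak on chromosome 4 at 86775350 to 86775559 (GRCm39 here and below) with a fold of 18.8 and a log10 q of -3.86. Rps23, a protein of the decoding centre, had a knockout peak of 3 exonic blocks that spanned chromosome 13 from 91071313 to 91071716, with a fold of 24.4 and a log10 q of -5.40. Both stood in the upper part of the knockout list by fold, at its percentiles 87.0 and 92.7, and below its middle by strength of q, at percentiles 27.6 and 39.7.

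Rps14, whose loss in human bone marrow marks the 5q- syndrome, had a fold of 20.6 with a log10 q of -4.36. Rps24, one of the genes mutated in human Diamond-Blackfan anaemia, had a lower fold of 5.94 at a log10 q of -2.38. None of these 4 genes had a control peak anywhere in the gene.

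The knockout-only genes of the large subunit were Rpl11, Rpl22, Rpl24, Rpl26, Rpl31, Rpl35 and Rpl38. Rpl26, which lies near the exit of the peptide tunnel, had a pair of knockout peaks on chromosome 11. The first, at 68792497 to 68793102, had a fold of 15.9 with a log10 q of -3.10, and the second, at 68795204 to 68797462, a fold of 2.29 with a log10 q of -36.0. The second was the strongest peak of these genes by q that had no counterpart in the control list. Rpl38, which is mutated in Tail-short mice, had a knockout peak of 3 blocks that spanned chromosome 11 from 114559435 to 114562578, with a fold of 20.6 and a log10 q of -14.3.

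Rpl11, which binds Mdm2 together with Rpl5 and 5S ribosomal RNA, had a knockout peak on chromosome 4 at 135780302 to 135780709 with a fold of 14.1 and a log10 q of -2.61. Rpl24, which forms a bridge between the subunits, had a fold of 12.2 (log10 q -4.59), and Rpl35, at the tunnel exit, a fold of 11.3 (log10 q -1.90). At the low end, Rpl31, also at the tunnel exit, had a fold of 3.84 (log10 q -3.84) and Rpl22, an RNA-binding protein, a fold of 1.75 (log10 q -3.73). Among paralogs, Rps27l, a p53-induced relative of Rps27, was knockout-only, with a fold of 4.45 and a log10 q of -7.23.

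The genes with control peaks only were Rps18 and Rps23rg1. Rps18, of the head of the small subunit, had 2 control peaks on chromosome 17. One spanned 34172949 to 34173099 with a fold of 6.42 and a log10 q of -2.86, and the other 34174855 to 34174975 with a fold of 6.02 and a log10 q of -1.64. The second overlapped a control peak of Vps52 on the other strand, so the reads there may belong to either gene. Rps23rg1 had 1 control peak with a fold of 9.62 and a log10 q of -2.22. By strength of q these 3 peaks stood at percentiles 14.9, 0.8 and 6.7 of the control list.

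The start sites of these genes are shown because the TOP tract is the sequence feature by which ribosomal protein genes are best known. The sequences are 30 bases from RefSeq (GRCm38.p6, not the build of the peaks), of which the base at position 11 is the first base of the annotated transcript. Capitals mark a run of at least 5 bases C or T that starts with C within 5 bases of that position. The 5 knockout-only genes with the largest fold among those with an entry in the table come first, and Rps18 of the control list comes last.
Rps23, chr13:90923112-90923141, plus strand: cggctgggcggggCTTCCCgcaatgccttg
Rpl38, chr11:114668570-114668599, plus strand: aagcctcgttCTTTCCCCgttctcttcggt
Rps6, chr4:86857348-86857377, minus strand: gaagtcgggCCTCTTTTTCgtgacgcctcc
Rpl26, chr11:68901556-68901585, plus strand: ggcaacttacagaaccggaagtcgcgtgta
Rpl11, chr4:136053374-136053403, minus strand: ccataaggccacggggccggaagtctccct
Rps18, chr17:33955646-33955675, minus strand: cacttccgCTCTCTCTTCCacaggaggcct

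Such a run was present at 7 of 14 annotated starts of the knockout-only genes (50%) and at 7 of 20 starts of the genes in both lists (35%), against 18.3% of 32851 starts of all genes in the table. By a narrower count at the annotated first base itself, it was 3 of 14 (21.4%) and 1 of 20 (5%), against 2.51% of all starts. The marked run of Rps23 begins only at base 4 of the transcript, whose annotated first base is G. Only the transcribed strand was searched, and a start without a run says only that these letters are not in this window. The table held starts for 29 of the 35 genes. Rps18, the control-only ribosomal protein gene, carried a run of 11 bases, and Rpl26 and Rpl11 of the knockout list carried none. The peaks themselves could not be read as sequence, since a genome of their build was not used here.

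Knockout peaks of ribosomal protein genes lacked a control counterpart more often than knockout peaks in general. Peaks were taken as counterparts when they lay on one strand and had 1 or more exonic bases in common. Of the 44 knockout peaks, 21 had none (47.7%, 32.5 to 63.3), against 24.5% of all knockout peaks. Of the 25 control peaks, 3 had no knockout counterpart (12%, 2.55 to 31.2), against 23.9% of all control peaks. The share of knockout peaks without a control counterpart was 36.7% (26.1 to 48.3) for genes named for oxidative phosphorylation and 34.8% (23.7 to 47.2) for mitochondrial ribosomal protein genes, and these intervals overlap that of the cytosolic ribosomal protein genes. Weak peaks lack counterparts more often in either list, so the peaks were also split by q, at limits chosen after the data were seen.

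Among knockout peaks with q above 1e-05, 13 of 17 (76.5%, 50.1 to 93.2) had no counterpart, against 50.5% of all. Between 1e-05 and 1e-10 it was 5 of 10 (50%, 18.7 to 81.3), against 20% of all, and among those with q of 1e-10 or less it was 3 of 17 (17.6%, 3.80 to 43.4), against 4.04% of all. The last 3 were the peaks of Rpl26 and Rpl38 given above and a peak of Rps4l with a fold of 1.92. In each of these 3 classes the interval includes the share of all knockout peaks. Of the 10 control peaks with q of 1e-10 or less, all had a knockout counterpart, which allows a share without one of up to 30.8% (exact interval), against 8.72% of all.

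**Figure D2:**
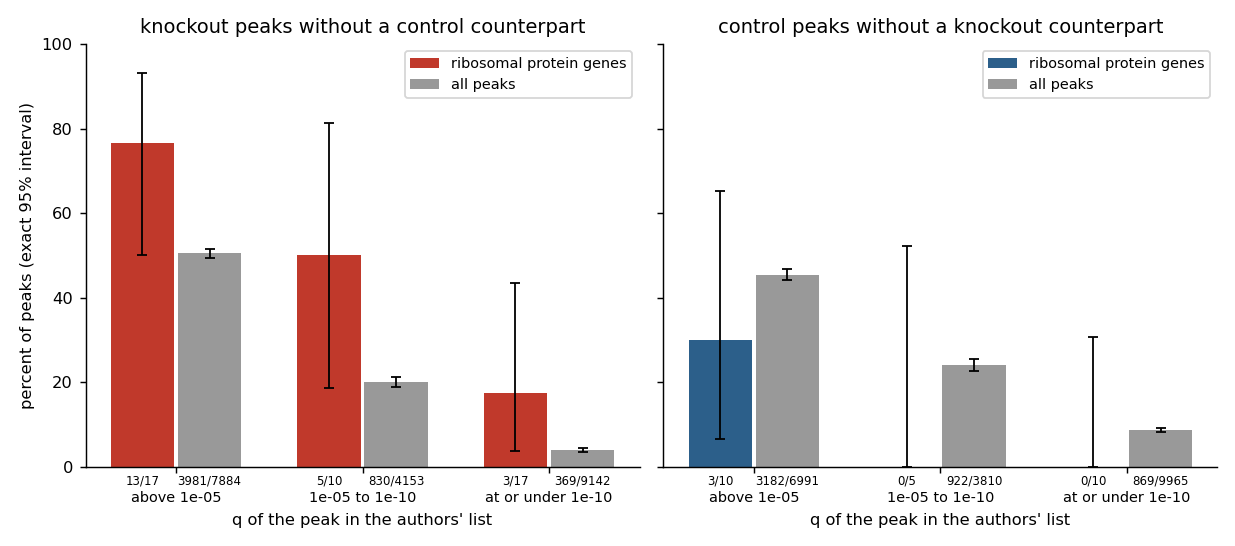
Percent of peaks without a counterpart in the other list, by class of q, for ribosomal protein genes (red in the knockout list, blue in the control list) and for all peaks of the list (grey). Bars carry exact 95% intervals for counting error and the counts behind them stand below; in the knockout list 13 of 17, 5 of 10 and 3 of 17 peaks of ribosomal protein genes had no counterpart.

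Several knockout-only peaks lay in genes that also had a peak in both lists. In 7 genes the knockout list added 1 such peak to the shared ones, and in 6 of the 7 it lay 5′ of every shared peak of the gene (85.7%, 42.1 to 99.6). For all genes, 55.1% of 3080 such knockout peaks lay 5′, against 33.6% of 2907 such control peaks. The interval for the 7 genes includes the share of all genes, and 2 of the 6 are Rps19bp1 and the transcribed pseudogene Rps4l. No control peak of the 35 genes was of this kind.

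Rpl29, a heparin-binding protein of the large subunit, had the largest fold of all these genes in its added knockout peak (chromosome 9, 106306890 to 106307127, fold 31.9, log10 q -7.51). This peak ended 1195 bases before the shared one, which had a fold of 3.78 and a log10 q of -80.4 in the knockout list, against a fold of 3.32 and a log10 q of -113 in the control list. In Rps19, the gene most often mutated in human Diamond-Blackfan anaemia, the added knockout peak (fold 3.40, log10 q -2.37) lay 3353 bases 5′ of the shared one. The shared peak of Rps19 had a fold of 3.96 (log10 q -70.5) in the knockout list, against 6.42 (log10 q -75.1) in the control list.

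The added knockout peaks of Rpl13a (fold 2.81), Rpl8 (1.37), Rps19bp1 (8.75) and Rps4l (1.92) lay between 212 and 2376 bases 5′ of a shared peak. Rpl7l1 was the exception, with an added knockout peak (fold 3.62) between its 2 shared ones. Distances are along the genome, introns included. Whether any of these peaks lay in a coding exon was not analysed here.

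**Figure D3:**
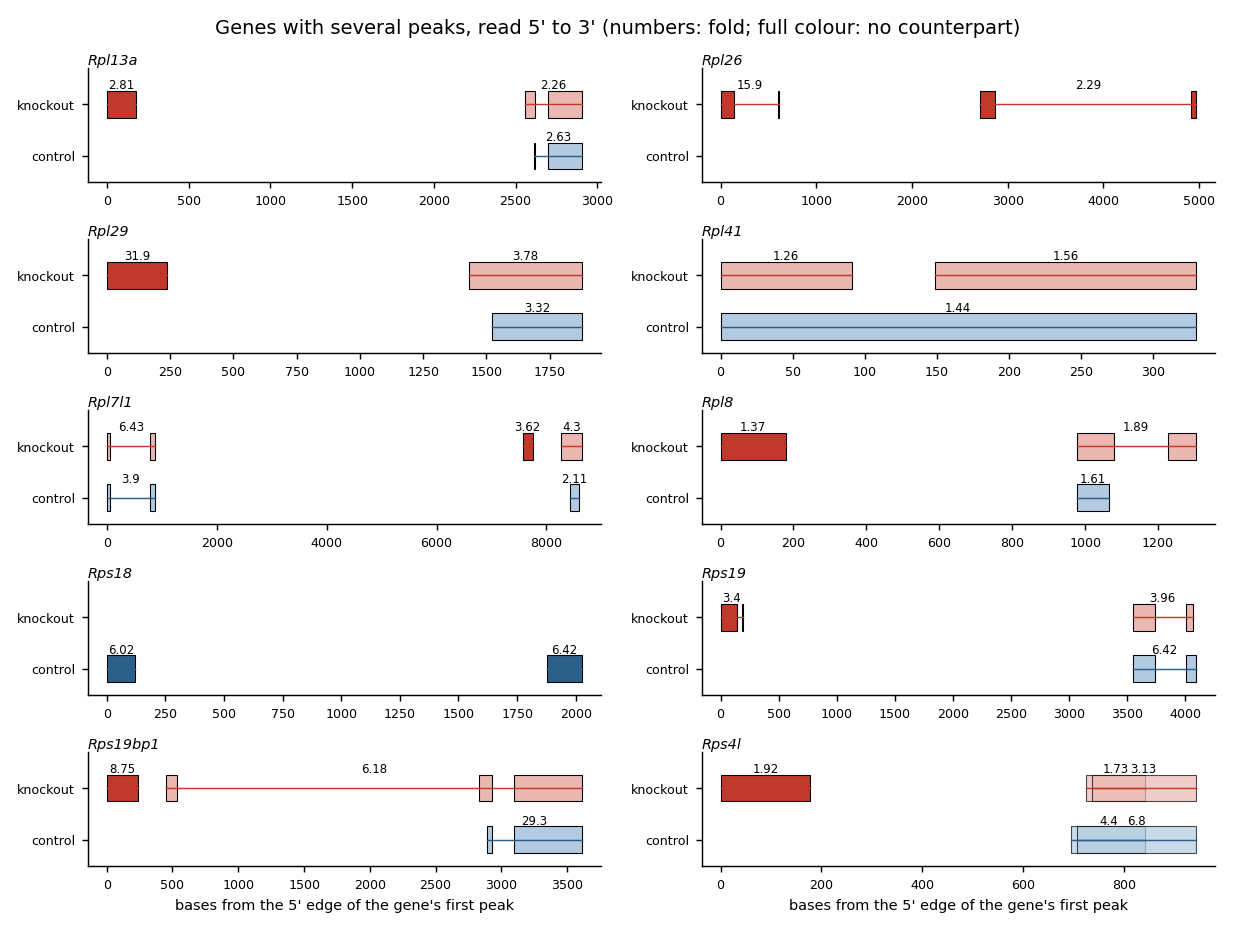
Peaks of the 10 genes with several peaks in a list, drawn 5′ to 3′ in bases from the 5′ edge of the gene's first peak, with the knockout list (red) above the control list (blue) and the fold above each peak. Boxes are exonic blocks, thin lines join the blocks of a peak, full colour marks peaks without a counterpart; the added knockout peaks of Rpl13a, Rpl29, Rpl8, Rps19, Rps19bp1 and Rps4l stand left of the shared ones.

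Where a single knockout peak matched a single control peak, the knockout peak was mostly the wider one. Of 18 pairs in which 1 knockout and 1 control peak of the same gene matched each other alone, the knockout peak was wider in 14 (77.8%), narrower in 3 and equal in 1. Over all 13227 such pairs it was wider in 42.2% and narrower in 43.8%. The median width was 240 bases in the knockout list and 166 in the control list for these 18 pairs, and 300 and 301 for all pairs. Rpl36al, Rpl41 and Rps4l are outside these pairs because a peak there matched several peaks, and their matched knockout peaks were narrower. Rpl36al had 177 bases in the knockout list, against 266 in the control list, and Rpl41 had 181 and 91, against 330. The overlapping peaks of Rps4l had 118 and 207 bases in the knockout list, against 147 and 236 in the control list.

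Rpl4, which lines the peptide tunnel, showed the smallest q of the 35 genes in the knockout list. Its knockout peak covered 300 bases on chromosome 9 at 64085529 to 64085828 with a fold of 2.62 and a log10 q of -217, and its control peak covered 270 bases from the same start with a fold of 1.85 and a log10 q of -77.3. Rpl23 had a knockout peak of 361 bases (fold 13.6, log10 q -5.33) around a control peak of 151 bases (fold 5.01, log10 q -2.56). Rpl34 had a knockout peak of 298 bases with a fold of 12.4 around a control peak of 209 bases with a fold of 4.28.

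Several genes had a fold under 2 in a list. Rps2 had a fold of 1.92 in the knockout list (211 bases, log10 q -39.5), against 1.49 in the control list (181 bases, log10 q -13.9). Rps9 had a fold of 2.24 (238 bases, log10 q -34.2) in the knockout list, against 1.48 (120 bases, log10 q -4.52) in the control list. Rpl14 had 1.5 in the knockout list, against 1.32 in the control list, and the shared peak of Rpl8, next to the peptidyl transferase centre, had 1.89, against 1.61.

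Rpl10a had a fold of 3.05 in the knockout list, against 1.99 in the control list, Rpl6 5.63 against 3.41, and the paralog Rpl22l1 3.91 against 2.57. In the other direction stood Rpl36 (7.81 in the knockout list, against 17.6 in the control list), Rps25 (3.15 against 7.49, sharing 1 base), Rpl36al (1.88 against 4.81) and Rps19bp1, the binding partner of Rps19. The Rps19bp1 peak had a fold of 6.18 and a log10 q of -48.8 in the knockout list, against 29.3 and -233 in the control list, the largest fold and the smallest q of the 35 genes there. Rpl13a had 2.26 in the knockout list, against 2.63 in the control list, and Rpl7l1, a relative of Rpl7, 4.30 and 6.43, against 2.11 and 3.90. How IP and input were scaled in each list is not stated, so these folds stand side by side and no ratio between them was taken.

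Rpl41, which encodes the shortest ribosomal protein, had a single control peak of 330 bases (fold 1.44, log10 q -77.3), while the knockout list held 2 peaks within it, of 181 bases (fold 1.56, log10 q -16.2) and 91 bases (fold 1.26, log10 q -4.04). Rps4l had 3 knockout peaks and 2 control peaks, and 2 of them in each list overlapped each other. Its folds in the overlapping peaks were 1.73 and 3.13 in the knockout list, against 4.4 and 6.80 in the control list. The Rpl36al peaks overlapped peaks of Gm49383 on the same strand, the Rps25 peaks those of Trappc4 on the other strand, and the Rpl22l1 knockout peak one of Gm33051 on the other strand. For these peaks the gene of origin is uncertain.

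Fold was low in ribosomal protein genes compared with the rest of either list. The median fold of their peaks was 3.88 in the knockout list (95% interval by order statistics 3.05 to 6.18), against 7.03 over all knockout peaks. In the control list it was 3.90 (2.11 to 6.02), against 7.22 over all control peaks. A fold under 2 was found in 10 of 44 knockout peaks (22.7%) and 7 of 25 control peaks (28%), against 4.06% and 3.80% of all peaks of each list. Low folds were also found in related groups: the median was 3.75 in the knockout list and 3.52 in the control list for genes named for oxidative phosphorylation, and 2.69 and 3.51 for mitochondrial ribosomal protein genes. The median width was 206 bases in the knockout list and 151 in the control list, against 241 and 270 for all peaks.

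Large folds and small q did not go together in the knockout list. A fold of at least 10 was found in 12 of 44 knockout peaks (27.3%), against 37.2% of all knockout peaks. These 12 had log10 q values between -1.90 and -14.3 (median -4.47), and 10 of them had no control counterpart, against 24.6% of all knockout peaks of that fold. The 24.6% covers peaks of every q and is not matched to the 12 in q, and weak peaks lack counterparts more often. The 10 knockout peaks with a fold under 2 had log10 q values between -3.73 and -39.5. Across the 44 knockout peaks the rank correlation of fold with −log10 q was -0.33, while over all 21179 knockout peaks it was 0.22. Across the 25 control peaks it was -0.04, against 0.24 over all control peaks. These correlations are descriptions across peaks that share 1 IP and 1 input library per list, and peaks of the same gene are not independent. In the control list 2 of 25 peaks (8%), those of Rpl36 and Rps19bp1, had a fold of at least 10, against 36% of all control peaks. Both had a knockout counterpart, while 20.4% of all control peaks of that fold had none.

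**Figure D4:**
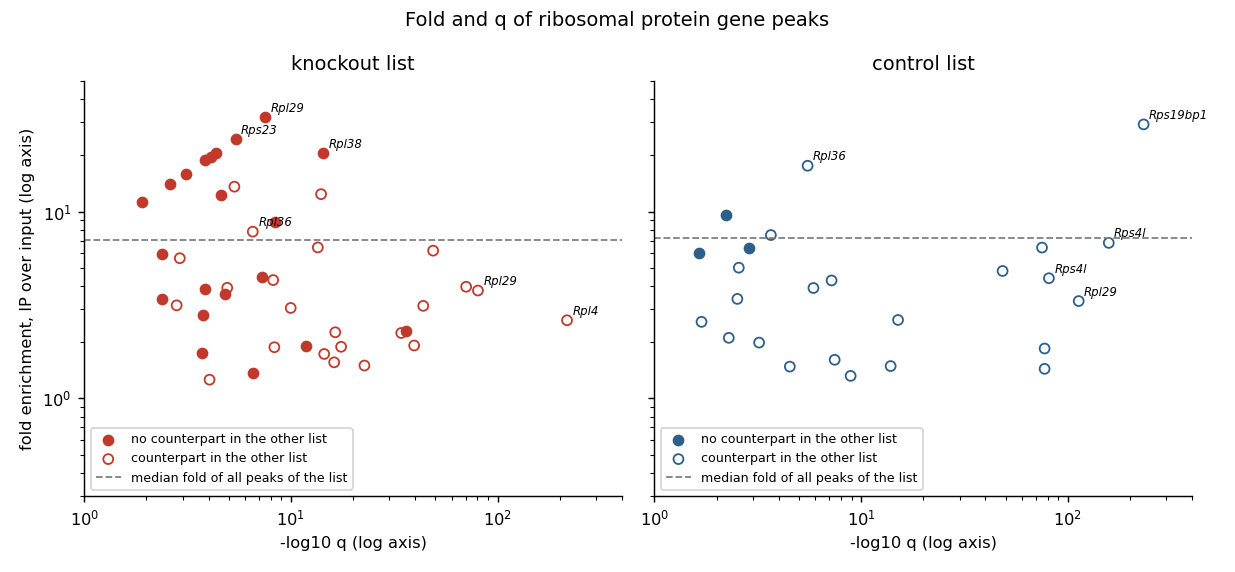
Fold enrichment (log axis) against −log10 q (log axis) for the 44 knockout peaks on the left and the 25 control peaks on the right. Filled circles have no counterpart in the other list and open circles have one. The dashed line is the median fold of all peaks of the list (7.03 in the knockout list, 7.22 in the control list). In the knockout list 10 of the 12 peaks with a fold of at least 10 are filled, and filled circles reach down to a fold of 1.37.

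Peaks over 2 or more exonic blocks were found in 15 of 44 knockout peaks (34.1%, 20.5 to 49.9) and 5 of 25 control peaks (20%, 6.83 to 40.7), against 23.3% and 21.2% of all peaks of each list. Both intervals include the share of all peaks. The smallest block had 6 bases in the knockout list (Rps23 and Rpl24) and 2 bases in the control list (Rpl13a).

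The related gene groups differed in their balance between the lists. Over all genes with a peak, 11.9% were knockout-only and 10.5% control-only. Pseudogenes with a ribosomal protein name and -ps, which share sequence with the genes above, had peaks in both lists for 9 of 16. They were knockout-only in 7 (43.8%, 19.8 to 70.1) and control-only in 0. How the authors assigned reads to such copies is not stated, so calls in genes with near-identical copies are uncertain. Genes named for subunits and assembly factors of oxidative phosphorylation were knockout-only in 21 of 70 cases (30%, 19.6 to 42.1) and control-only in 2. Mitochondrial ribosomal protein genes were knockout-only in 6 of 65 (9.23%, 3.46 to 19.0) and control-only in 13 (20%, 11.1 to 31.8). The intervals of the knockout-only share do not overlap between the cytosolic and the mitochondrial ribosomal protein genes. They do overlap between the cytosolic ones and oxidative phosphorylation, and between the cytosolic ones and the -ps pseudogenes. These groups were picked after the data were seen, and the differences between them were not tested.

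Ribosomal protein genes outside the choice by symbol were few. Rpsa, a 40S protein also known as the laminin receptor, had a peak with a fold of 1.71 in the knockout list, against 1.78 in the control list. Fau, a fusion that releases a 40S protein, had a knockout-only peak with a fold of 7.03 and a log10 q of -2.02.

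**Figure D5:**
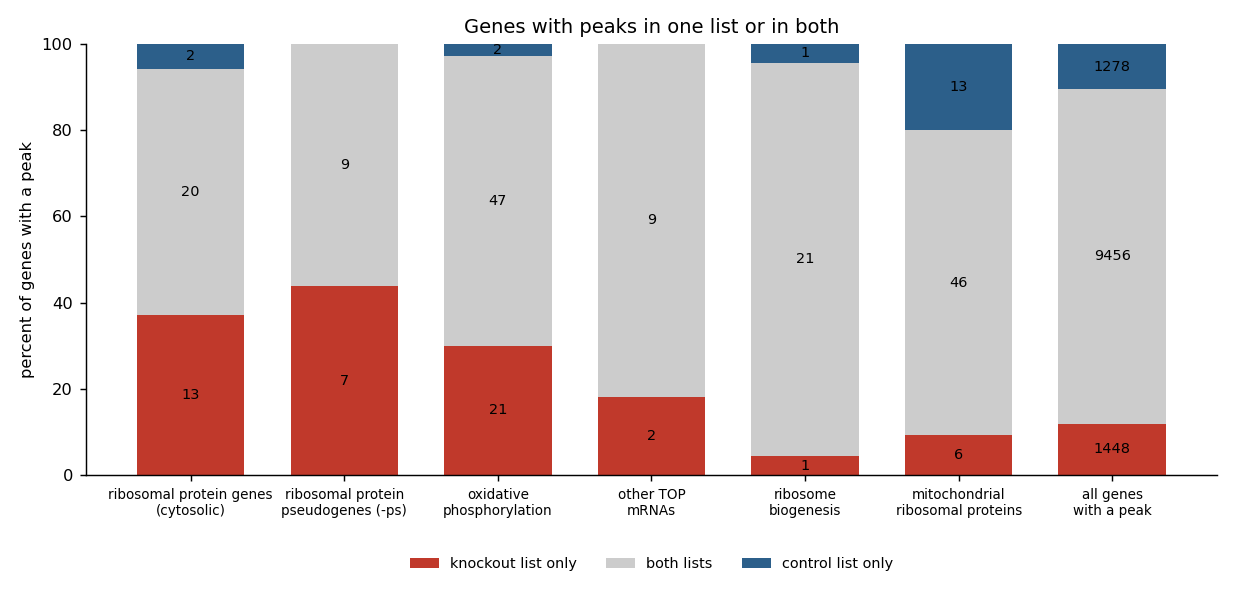
Percent of genes with a peak in the knockout list only (red), in both lists (grey) and in the control list only (blue), with gene counts in the bars. Of the cytosolic ribosomal protein genes 13 of 35 were knockout-only and 2 control-only, against 6 and 13 of 65 mitochondrial ribosomal protein genes and 1448 and 1278 of all 12182 genes.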

How the data were processed

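Per the labels' protocols, 300 µg of RNA was pooled per genotype from hearts of 4-day-old mice, cut to fragments of about 100 nt and kept with the antibody for 2 h, and both libraries were read in pairs of 150 bases. The 4 groups follow the genotype and antibody labels, with 1 library in each. In the titles, the knockout is abbreviated differently from its genotype label.

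Per the series' design text, the authors used exomePeak 2.16.0, with the input of the same genotype as control and a q limit of 0.05, and HOMER (4.9.1) for motifs. The submitters' processing notes also list BWA (0.7.12) and fastp (0.19.11), and GRCm39 as the build. The deposited lists give the exonic blocks of each peak, its p-value and its fold enrichment as a linear ratio of IP over input. The authors' log10 columns of p and q were treated as a score because some entries are minus infinity. The lists hold no read totals, so the depth was unknown.

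Overlaps and intervals were computed in Python 3.11.15 (scipy 1.17.1, pandas 2.3.3, numpy 2.4.6), and figures drawn with matplotlib 3.10.9. Overlap counting was tested on simulated data. Shares have exact (Clopper-Pearson) and medians order-statistics 95% intervals, which cover counting error only. All 35 symbols matched a RefSeq table of GRCm38.p6, used for gene types and start sequences. The rule for named genes took those with a peak in 1 list only, with several peaks in a list, with a peak over several exonic blocks, or among the 8 with the largest fold or the 8 with the smallest q of a list, and up to 6 genes by smallest q from each other list. The remaining members are named too, except that the values of 1 member and of 1 further ribosomal protein gene are not reported here. The members and gene lists were chosen with earlier results of these data known, and the comparisons of width, position, fold class and gene names were chosen after the data were seen. Alternatives were q at or under 0.001, a fold of at least 2, equal list lengths (20766 peaks, smallest q first), protein-coding genes, no peaks overlapping another gene's peak, 50% overlap, no strand, 1 peak per gene and, added after the data were seen, only names among the 80 ribosomal proteins.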

Additional observations from a re-analysis of the deposited data

How the results depend on the processing

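The 8 counts, shares and medians of the ribosomal protein genes were recomputed under the alternatives that apply to each: 50% overlap and no strand for the shares only, 1 peak per gene for the medians only, and the others for all. The number of control-only genes was 1 in place of 2 at q at or under 0.001, where fewer peaks enter, and 1 with only names among the 80 ribosomal proteins, where Rps23rg1 is left out by construction. The other values stayed within 1.5 times (counts) or within the interval of the main value (shares and medians). Knockout-only genes numbered 12 to 15, the share of knockout peaks without a control counterpart was 47.7% to 61.8%, and the share of control peaks without a knockout counterpart was 5.56% to 22.2%. The upper ends, 15 genes, 61.8% and 22.2%, came with a fold of at least 2. That limit took out the control peaks of Rpl10a (fold 1.99), Rpl4 (1.85) and Rps9 (1.48) but kept their knockout peaks, so these genes became knockout-only by the filter. Shares over all genes or peaks under the same alternatives are not given, so these ranges have no background beside them. No paired analysis was possible because each genotype had 1 pooled library pair. Control-only genes were 3 with a fold of at least 2 or without peaks that overlap a peak of another gene. The added gene has peaks in both full lists and loses only its knockout peak to the filter. It is Rpl36al (knockout fold 1.88) under the fold limit and Rpl22l1 under the overlap rule. The unknown depth limits all comparisons between the lists.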

Other observations

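Genes for ribosome biogenesis had peaks in both lists for 21 of the 23 that had any (91.3%, exact 95% interval 72.0 to 98.9). The share was 57.1% (20 of 35, 39.4 to 73.7) for ribosomal protein genes and 77.6% for all genes with a peak. The interval of the biogenesis genes includes the share of all genes, and the differences were not tested. Dkc1, which encodes the pseudouridine synthase dyskerin, had a peak in the knockout list only and Znhit3 in the control list only. Ncl, which encodes nucleolin, had 3 knockout peaks and 4 control peaks. Here and below, the strongest peak of a gene is the one with the smallest q, taken in each list separately. Whether it lies at the same site in both lists is not given. The strongest peak of Rrs1, an assembly factor of the 60S subunit, had a fold of 25.5 (log10 q -236) in the knockout list, against 13.6 (log10 q -140) in the control list. Fbl, the methyltransferase fibrillarin, had 31.3 (log10 q -90.6) in the knockout list, against 14.6 (log10 q -63.5) in the control list. The strongest peak of Bysl had 10.1 (log10 q -127) in the knockout list, against 23.4 (log10 q -145) in the control list. Closer folds were found in the strongest peaks of Eif6 and Ubtf. Eif6 had 12.3 (log10 q -132) in the knockout list, against 11.8 (log10 q -105), and Ubtf 8.23 (log10 q -128), against 9.2 (log10 q -140).

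Of 10 genes for kinases named after Rps6, 7 had peaks in both lists, Rps6kl1 in the knockout list only, and 2 in neither. Of the 8 with a peak, 87.5% (47.3 to 99.7) were in both lists, against 77.6% of all genes with a peak. Rps6kb1, an S6 kinase that phosphorylates Rps6, had 2 peaks in each list, the strongest with a fold of 15.3 (log10 q -98.3) in the knockout list, against 20.8 (log10 q -172) in the control list. Of 18 other genes with TOP transcripts, 9 had peaks in both lists, 2 in the knockout list only and 7 in neither. Of the 11 with a peak, 81.8% were in both lists, against 77.6% of all genes with a peak. The knockout-only share was 18.2% (2.28 to 51.8), against 11.9% of all genes with a peak. The knockout-only genes were Eef1b2 and Pabpc1, which encodes the poly(A)-binding protein (fold 2.08, log10 q -13.1). Eef2, the translocase of elongation, had a fold of 3.12 in the knockout list, against 3.18 in the control list, and Vim, which encodes vimentin, had 3.44, against 2.61 in their strongest peaks.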
